A study of Mus musculus with 6 samples.

Results

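The genes of cholesterol and fatty acid synthesis were examined in Myc-driven B-cell tumors of mice with and without miR-146a. They comprised 30 genes, chosen by name from the 38293 genes of the expression table, and each name matched 1 gene. RNA from 6 tumors was sequenced. Every mouse was C57BL6 and carried the Eμ-Myc transgene, in which an immunoglobulin enhancer that is active in B-lineage cells drives c-Myc, so that none of the tumors was free of forced Myc expression. There were 4 tumors from miR-146a+/+ males, called sufficient here. Sufficient tumors 1 and 2 were from neck nodes at 18 and 16 weeks of age, and sufficient tumors 3 and 4 were from the thymus, both at 10 weeks. The other 2 tumors, called deficient, were from the thymus of miR-146a-/- mice that were labelled female and were 11 and 10 weeks old. Each tumor was dissociated into a cell suspension and lysed without a stated sort, and each library is 1 tumor. The sex labels differ between the genotypes and neck nodes occur in 1 genotype, so sex and genotype cannot be told apart by the labels.

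Cells make cholesterol from acetyl-CoA through mevalonate, squalene and lanosterol, and they make long-chain fatty acids from the same precursor through malonyl-CoA. The SREBP transcription factors, encoded by Srebf1 and Srebf2, turn on the enzymes of both routes. When sterols are low, SCAP escorts the SREBP precursors out of the endoplasmic reticulum for cleavage, and when sterols are high the INSIG proteins hold SCAP back. Proliferating lymphocytes draw on both routes for membrane, and Myc and SREBPs are known to act together at lipid synthesis genes.

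The SREBPs are known to bind sterol elements and E-boxes, often beside a CCAAT box that is bound by NF-Y. Promoter windows from RefSeq, on the GRCm38.p6 build and running from 250 bases before to 50 bases after a transcription start, were found for 24 of the 30 genes, with 32 starts in all. CCAAT on either strand was present in 20 of the 24 genes (83.3%), beside 41.1% of 27025 genes with a window, and it occurred at least 2 times in 45.8% of the members and in 13.3% of all genes. The E-box CACGTG, which reads the same on both strands, was present in 5 of the 24 genes (20.8%), beside 8.09% of all genes. The core of the classical sterol element, CACCCCAC on either strand, was present only in Hmgcs1 and Acat2 (8.33%), beside 3.30% of all genes. These motifs share no bases with each other here except that direct and inverted CCAAT overlap by 2 bases at Fasn. A match is a description of letters and not a bound site.

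The stretches below show the contrast between a promoter rich in CCAAT (Mvk, with 5 copies), the one of Hmgcs1 with a sterol element core, the promoter of fatty acid synthase, 2 alternative starts of Srebf1 and a promoter with none of the 3 motifs (Elovl6). Capitals mark CCAAT, its inverse ATTGG and CACCCCAC, and each stretch is written 5′ to 3′ in the direction of the gene and ends before the start.
Mvk, chr5:114444079-114444268, plus strand: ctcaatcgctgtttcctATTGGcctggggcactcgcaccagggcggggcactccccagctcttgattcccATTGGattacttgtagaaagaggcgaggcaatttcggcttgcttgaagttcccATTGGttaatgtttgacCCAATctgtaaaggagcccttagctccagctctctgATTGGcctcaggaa
Hmgcs1, chr13:119690161-119690320, plus strand: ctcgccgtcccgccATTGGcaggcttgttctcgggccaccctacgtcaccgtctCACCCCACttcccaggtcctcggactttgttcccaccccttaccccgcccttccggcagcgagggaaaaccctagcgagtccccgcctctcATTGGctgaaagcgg
Fasn, chr11:120824568-120824667, minus strand: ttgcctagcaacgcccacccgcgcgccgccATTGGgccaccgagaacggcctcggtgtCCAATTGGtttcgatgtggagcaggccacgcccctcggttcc
Srebf1, start 1, chr11:60222652-60222761, minus strand: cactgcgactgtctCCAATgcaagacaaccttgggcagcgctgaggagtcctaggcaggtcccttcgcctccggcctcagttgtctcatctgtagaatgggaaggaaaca
Srebf1, start 3, chr11:60210472-60210561, minus strand: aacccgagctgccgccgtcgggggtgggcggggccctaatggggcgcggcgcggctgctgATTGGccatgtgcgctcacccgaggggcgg
Elovl6, chr3:129532266-129532365, plus strand: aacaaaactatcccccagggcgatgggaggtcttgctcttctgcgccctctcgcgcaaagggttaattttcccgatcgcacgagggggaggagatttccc
In Mvk the CCAAT matches began 173, 120, 67, 50 and 14 bases before the start. In Hmgcs1 the sterol element core began 136 bases before the start, with inverted CCAAT at 176 and at 45 bases before the start. Its window held 4 inverted CCAAT in all, the others lying 237 bases before and 10 bases after the start, outside the stretch printed.

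**Figure D1:**
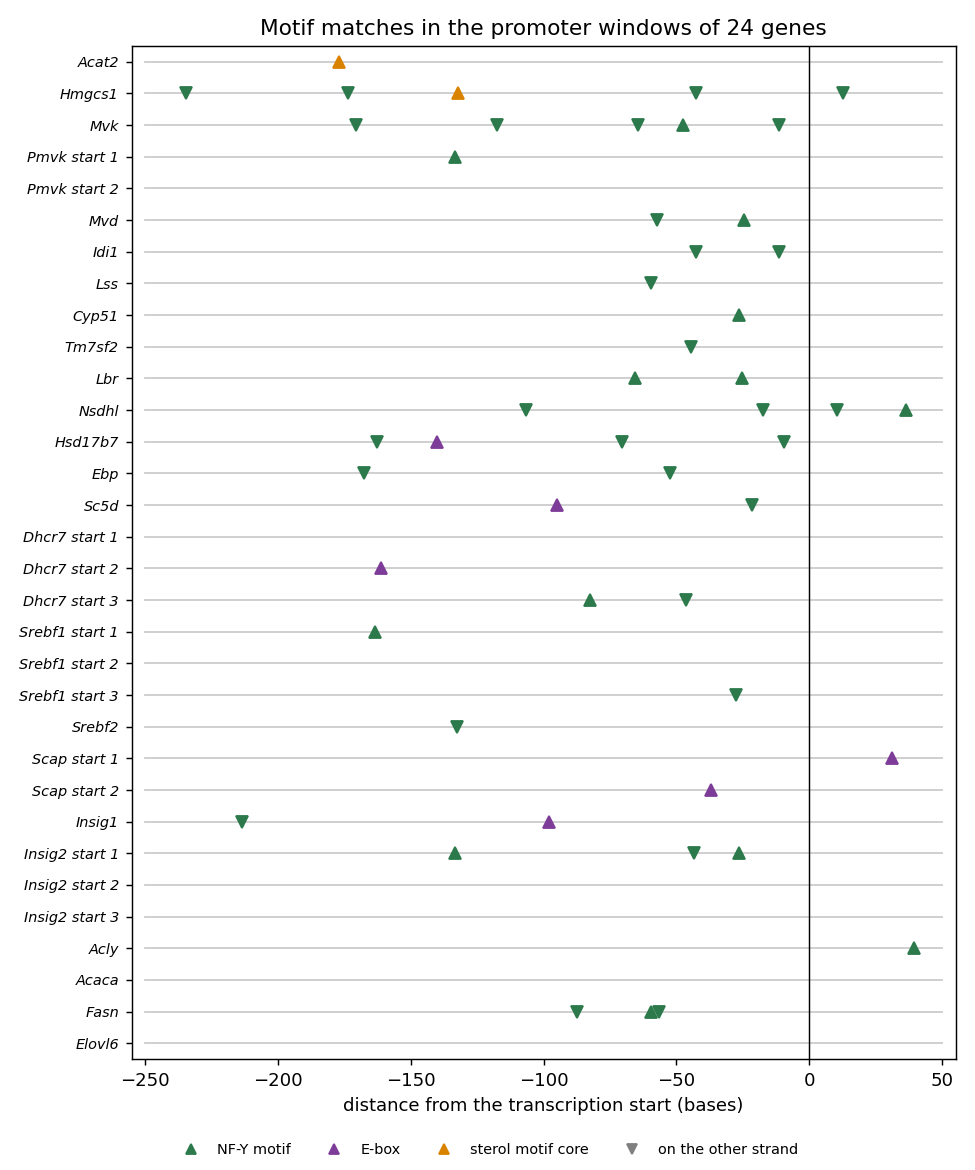
Matches of CCAAT (NF-Y motif, green), the E-box (purple) and the sterol element core (orange) in the promoter windows of 24 genes, plotted as the distance of the middle of the match from the transcription start in bases; triangles pointing up lie on the gene's strand and those pointing down on the other strand. The sterol element core is seen in Acat2 and Hmgcs1 only, and 20 of the 24 genes hold at least 1 NF-Y motif.

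The microRNA deleted in the deficient mice is miR-146a-5p, printed with bases 2 to 8 (its seed) in capitals, which lies at chr11:43374435-43374456 on the minus strand of GRCm38.p6.
miR-146a-5p: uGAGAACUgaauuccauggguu
The row of the microRNA gene itself, Mir146, was at 0 in all 6 tumors, of both genotypes, so that the deletion could not be checked in these libraries.

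Levels are RPKM, reads scaled by the length of the gene and the size of the library, and can be compared between genes. Tumors had between 16947 and 19560 genes above 0. RPKM summed over genes other than Xist came to between 673931 and 787151, while Xist alone raised the sum of deficient tumor 1 from 692853 to 1932926. Ddx3y, a Y-linked gene, was at 0.130 RPKM in deficient tumor 1 and at 24.6 in deficient tumor 2, where the 4 male tumors had 17.9 to 23.0, which goes against the female label of deficient tumor 2 and leaves its identity unchecked. The Xist value of deficient tumor 1, 1240070 RPKM, is implausibly high. Xist was also at 1585 to 2203 RPKM in the 4 male tumors and at 1819 RPKM in deficient tumor 2, so it could not serve to check sex. The B-cell markers were present in every tumor, with Cd79b, a part of the B-cell receptor, at 445 to 912 RPKM and Pax5, the factor that sets B-cell identity, at 22.6 to 37.8 RPKM. Read totals are unknown, so no counting error can be given.

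All 30 genes passed the filter of at least 0.5 RPKM in at least 2 tumors. Their mean level over the 6 tumors ran from 1.29 RPKM for Tm7sf2 to 114 for Lbr, both of which reduce the same double bond of the sterol nucleus, while Lbr also anchors chromatin at the nuclear envelope. After Lbr came Scd2 (83.5 RPKM), Acly (70.2), Scd1 (69.4) and Fasn (49.5), all of fatty acid synthesis. Lbr was at 129, 135, 104 and 95.5 RPKM in sufficient tumors 1 to 4, and at 133 and 85.8 in deficient tumors 1 and 2. Of the sterol enzymes, Fdps, which makes farnesyl diphosphate, stood at 34.9 RPKM on average, and the other 16 besides Lbr had means of 17.6 or less. Neighbours in the order of means overlapped across tumors, except that Insig2 (3.91 RPKM on average) lay above Hsd17b7 (2.26) without overlap.

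**Figure D2:**
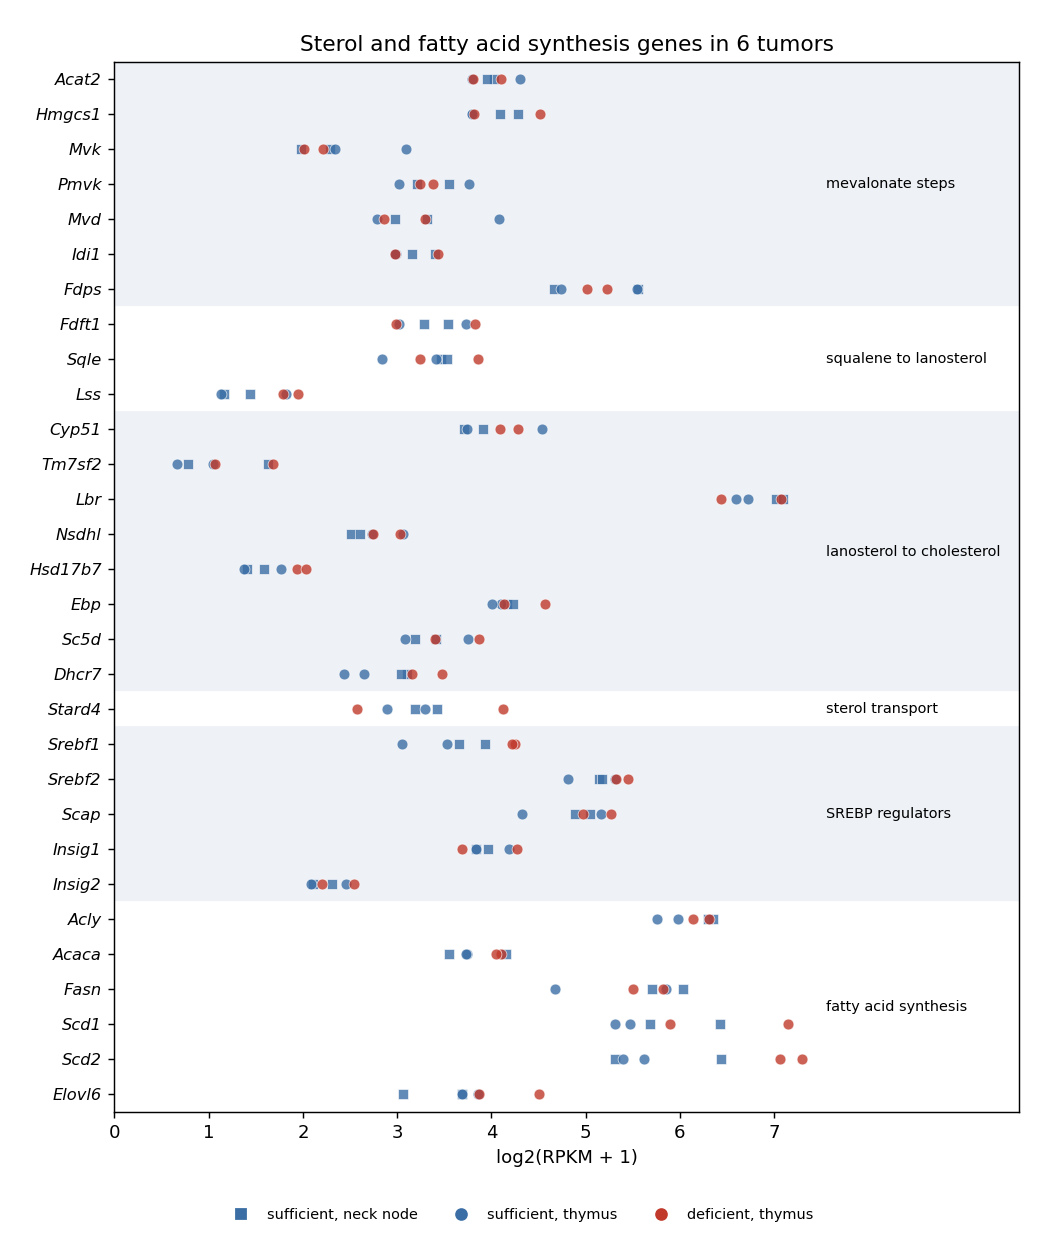
Level of each of the 30 genes, as log2(RPKM + 1), in the 6 tumors, with genes grouped by step; each point is 1 tumor, squares are neck node and circles thymus, blue is miR-146a-sufficient and red is deficient. Lbr, Scd2, Acly, Scd1 and Fasn have the highest means, with Fdps overlapping the lower points of Fasn, Scd1 and Scd2, and both red points of Scd2 lie to the right of all 4 blue ones.

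The first comparison asked whether these genes differed between the genotypes. No member passed the adjusted threshold of 0.05 by limma, fitted on log2(RPKM + 1) over all 12751 genes past the filter and adjusted by Benjamini-Hochberg over them, where 0.0627% of all genes passed (8 genes). Scd2, which desaturates stearate to oleate, was the member with the largest difference and stood 2.70-fold higher in deficient tumors by the ratio of mean RPKM, and Srebf1 stood 1.63-fold higher by the same ratio. These 2 of the 30 genes, both higher in deficient tumors, had an unadjusted p under 0.05, beside 2.88% of all genes that did so in that direction, and no member did so in the other direction. With 4 tumors against 2, p-values rest on the spread between these tumors alone.

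Scd2 (chr19:44293674-44306864, GRCm38) was at 85.3, 38.6, 41.0 and 48.0 RPKM in sufficient tumors 1 to 4, and at 132 and 156 RPKM in deficient tumors 1 and 2. Both deficient tumors lay above every sufficient tumor, and sufficient tumor 1, from a neck node, was the nearest to them. The mean was 144 ± 16.6 RPKM (SD, n = 2) against 53.2 ± 21.7 (SD, n = 4). On the log2 scale the difference was 1.49 (SE 0.32, 95% interval 0.75 to 2.22), with an unadjusted p of 0.00152 and an adjusted p of 0.709 by limma, and it ranked 27 of the 12751 genes by p. The difference was 1.60 without deficient tumor 1, 1.37 without deficient tumor 2 and 1.74 without sufficient tumor 1.

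Scd1 (chr19:44394455-44407879), the paralog on the same chromosome, was at 50.5, 85.1, 43.2 and 38.8 RPKM in sufficient tumors and at 140 and 58.4 in deficient tumors. Deficient tumor 1 was the highest of the 6, while deficient tumor 2 lay below sufficient tumor 2, so the groups overlapped. Its log2 difference of 0.79 (95% interval -0.14 to 1.73) had an unadjusted p of 0.0855 and an adjusted p of 0.893 by limma, and it was 0.17 without deficient tumor 1 and 1.42 without deficient tumor 2. The transcripts of the paralogs are 95.5% identical over 623 bases, where the Scd2 transcript has 5455. How reads from that stretch were assigned or dropped was not tested.

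The ratio of Scd1 to Scd2 inside a tumor does not depend on scaling between tumors. It was 0.592, 2.20, 1.05 and 0.808 in the sufficient tumors, and 1.06 and 0.375 in the deficient tumors. The sufficient tumors spanned the value of deficient tumor 1, and deficient tumor 2 had the lowest ratio. The log2 ratio, taken on RPKM + 1, differed by -0.69 between genotypes (exact two-sided permutation test, p = 0.533; adjusted over 4 ratios, 0.667).

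Elovl6 (chr3:129532355-129638495), which elongates palmitate to stearate, the substrate of these desaturases, was at 11.9, 7.37, 11.9 and 13.5 RPKM in sufficient tumors and at 13.6 and 21.7 in deficient tumors. The groups did not overlap, but deficient tumor 1 exceeded sufficient tumor 4 only by a small margin and deficient tumor 2 carried most of the difference. Its log2 difference was 0.61 (95% interval -0.07 to 1.28), with an adjusted p of 0.893 by limma. It was 0.93 without deficient tumor 1 and 0.29 without deficient tumor 2.

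The earlier enzymes of fatty acid synthesis showed smaller differences. Fasn, the fatty acid synthase, was at 64.7, 51.1, 24.5 and 56.7 RPKM in sufficient tumors and at 44.3 and 55.5 in deficient tumors. Both deficient values lay inside the sufficient range, which sufficient tumor 3 extended downward, and the log2 difference was 0.09 (95% interval -0.75 to 0.94). Acly, which supplies cytosolic acetyl-CoA from citrate, was at 80.7, 77.5, 52.9 and 62.3 RPKM in sufficient tumors and at 69.3 and 78.3 in deficient tumors. Its groups overlapped too, with a log2 difference of 0.13 (95% interval -0.40 to 0.66). Acaca, which makes malonyl-CoA, had a log2 difference of 0.28, and 99.2% identity over 6118 bases to the gene Gm5182 leaves the assignment of its reads uncertain. All 6 fatty acid genes had positive log2 differences with a median of 0.45, beside a median of 0.13 over all genes tested, and after median-ratio scaling Acly and Fasn turned negative.

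**Figure D3:**
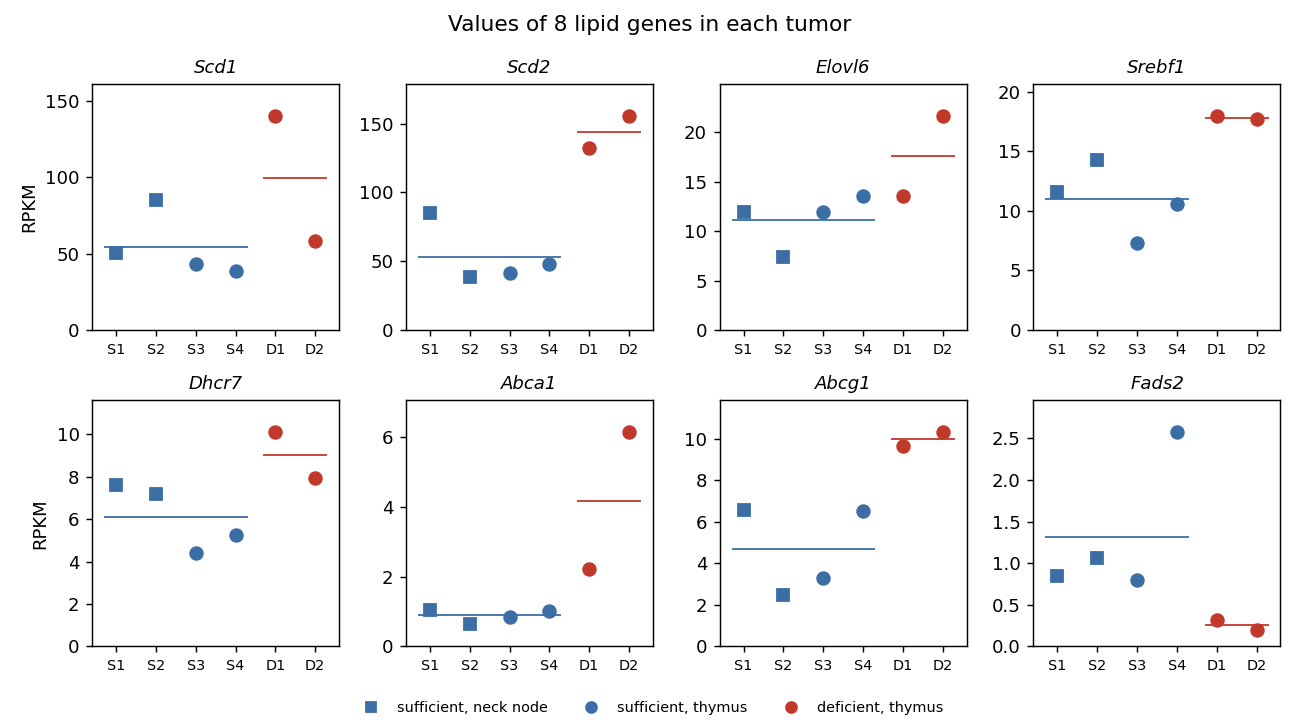
RPKM of 8 lipid genes in each tumor (S, sufficient; D, deficient; numbers as in the text), with each axis starting at 0; squares are neck node, circles thymus, and horizontal lines are group means. The deficient tumors lie above all sufficient tumors for Scd2, Elovl6, Srebf1, Dhcr7, Abca1 and Abcg1, below all of them for Fads2, and on both sides of sufficient tumor 2 for Scd1.

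Among the regulators, Srebf1 (chr11:60199089-60222581) was at 11.6, 14.3, 7.29 and 10.6 RPKM in sufficient tumors and at 18.0 and 17.7 in deficient tumors. The 2 deficient tumors were close to each other and above all 4 sufficient tumors, with means of 17.8 ± 0.217 RPKM (SD, n = 2) and 10.9 ± 2.90 (SD, n = 4). The log2 difference was 0.69 (SE 0.27, 95% interval 0.07 to 1.31), with an unadjusted p of 0.0324 and an adjusted p of 0.893 by limma. The unadjusted limma p became 0.0539 without sufficient tumor 4, 0.111 without deficient tumor 1 and 0.101 without deficient tumor 2, at log2 differences of 0.69, 0.68 and 0.70. The table gives 1 value per gene and does not separate the transcripts that arise from the 3 starts of Srebf1.

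Srebf2, whose product favors the sterol genes, was at 34.3, 35.1, 27.1 and 38.8 RPKM in sufficient tumors and at 42.8 and 38.9 in deficient tumors. The groups did not overlap, although sufficient tumor 4 and deficient tumor 2 were almost level, and the log2 difference was 0.28 (95% interval -0.20 to 0.76). The ratio of Srebf1 to Srebf2 was 0.339, 0.407, 0.270 and 0.273 in sufficient tumors and 0.420 and 0.455 in deficient tumors. Both deficient ratios were above all sufficient ones, by 0.41 on the log2 scale, and the exact two-sided permutation p of 0.133 (adjusted over 4 ratios, 0.533) is the smallest that 4 tumors against 2 allow.

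Scap was at 32.1, 28.6, 19.0 and 34.8 RPKM in sufficient tumors and at 30.3 and 37.7 in deficient tumors. Insig1, itself a target of the SREBPs, was at 14.6, 13.3, 13.3 and 17.3 RPKM in sufficient tumors and at 18.3 and 11.9 in deficient tumors. Insig2 was at 3.32, 3.97, 3.25 and 4.48 RPKM in sufficient tumors and at 3.62 and 4.83 in deficient tumors. In all 3 genes the groups overlapped, and the deficient tumors held the highest value of each gene and, for Insig1, also the lowest. The ratio of Insig1 to Insig2 was 3.35 to 4.40 in the sufficient tumors, 5.06 in deficient tumor 1 and 2.46 in deficient tumor 2, so the deficient tumors lay on either side of all sufficient tumors (exact two-sided permutation p = 0.667; adjusted over 4 ratios, 0.667).

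Along the sterol route, the 95% intervals of all 18 enzymes included 0. The 7 mevalonate genes (Acat2, Hmgcs1, Mvk, Pmvk, Mvd, Idi1 and Fdps) had a median log2 difference of -0.07, with 2 positive and 5 negative, from -0.31 for mevalonate kinase (Mvk) to 0.17 for HMG-CoA synthase (Hmgcs1), and all 7 had overlapping groups. These signs turned on single tumors, with 6 positive and 1 negative without sufficient tumor 4, 5 and 2 without deficient tumor 2, and 0 and 7 without deficient tumor 1. Hmgcs1 was at 18.5, 16.1, 12.9 and 12.9 RPKM in sufficient tumors and at 21.8 and 13.1 in deficient tumors. Here 1 deficient tumor was the highest of the 6 and the other was level with the thymic sufficient tumors. Mvd, which makes isopentenyl diphosphate, was highest in sufficient tumor 4 (15.9 RPKM) and lay between 5.87 and 8.94 RPKM elsewhere.

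The 3 genes from squalene to lanosterol had log2 differences of 0.01 (Fdft1, squalene synthase), 0.25 (Sqle, squalene epoxidase) and 0.48 (Lss, which closes the rings), and their groups overlapped. Of the 8 genes from lanosterol to cholesterol, 7 were positive and Lbr was negative (-0.10), with a median of 0.25. Dhcr7 (chr7:143823145-143848410), which reduces the immediate precursor of cholesterol, was at 7.59, 7.20, 4.40 and 5.26 RPKM in sufficient tumors and at 10.1 and 7.93 in deficient tumors. Both deficient tumors were above all sufficient ones, deficient tumor 2 being close to sufficient tumor 1, with a log2 difference of 0.51 (95% interval -0.11 to 1.13) and an adjusted p of 0.893 by limma. Hsd17b7, which removes a keto group on the way from lanosterol, was at 1.65, 2.01, 1.59 and 2.40 RPKM in sufficient tumors and at 2.84 and 3.09 in deficient tumors. Its groups did not overlap either, and the log2 difference was 0.45 (95% interval -0.08 to 0.99).

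Tm7sf2 was at 0.721, 2.08, 0.587 and 1.07 RPKM in sufficient tumors and at 1.09 and 2.20 in deficient tumors. Sufficient tumor 2 and deficient tumor 2 were the high ones, so its level did not follow genotype. The ratio of Tm7sf2 to Lbr was 0.00561 to 0.0154 in sufficient tumors and 0.00819 and 0.0257 in deficient tumors, so that Lbr exceeded Tm7sf2 in every tumor (exact two-sided permutation p = 0.4 for the genotypes; adjusted over 4 ratios, 0.667). Stard4, a carrier of cholesterol between membranes, was at 16.4 RPKM in deficient tumor 1 and 4.95 in deficient tumor 2, with the sufficient tumors between them at 6.42 to 9.70. It had the widest ratio between the deficient tumors of any member, 3.31-fold.

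Over the whole set, 24 of the 30 log2 differences were positive with a median of 0.19, beside 67.6% positive and a median of 0.13 over all genes tested. Median-ratio scaling moved the median of all genes to -0.01, and then 17 members were positive and 13 negative with a median of 0.03. Without deficient tumor 2, the one whose sex label is in doubt, 26 members were positive with a median of 0.31, beside 0.07 over all genes. Without deficient tumor 1 there were 18, and their median of 0.14 was below that of all genes, 0.18. Over all 6 tumors 19 of the 30 members were above the median of all genes, with or without median-ratio scaling. There were 18 after quantile normalization, 14 without deficient tumor 1 and 22 without deficient tumor 2. Deficient values lay above all sufficient values in 6 members (Dhcr7, Hsd17b7, Srebf1, Srebf2, Scd2 and Elovl6), beside 9.15% of all genes, and below them in 0 members, beside 2.09%. After median-ratio scaling deficient values were above in 3 members, Hsd17b7, Srebf1 and Scd2, beside 4.87% of all genes.

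**Figure D4:**
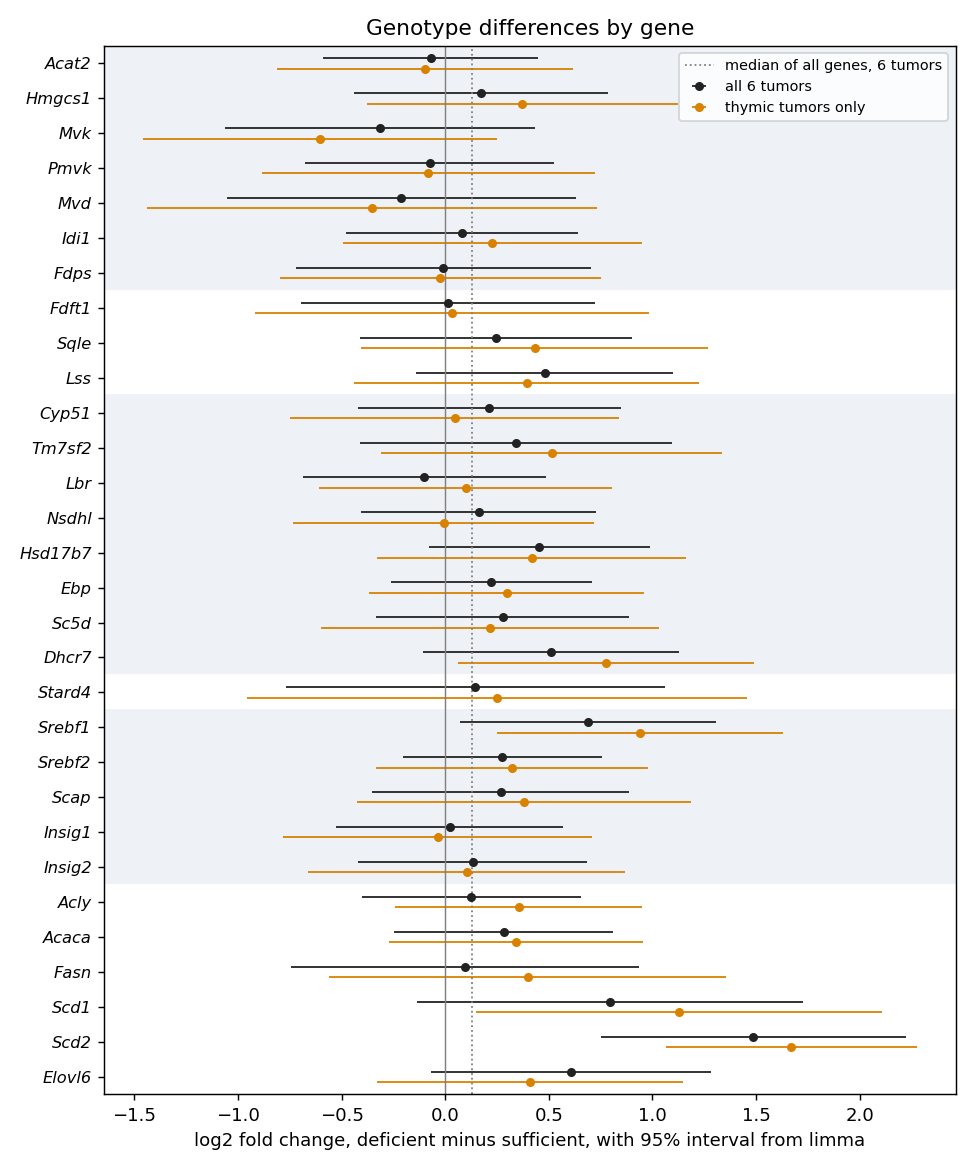
Log2 difference of each gene between deficient and sufficient tumors on the log2(RPKM + 1) scale, with the 95% interval from limma, over all 6 tumors (black) and over the 4 thymic tumors (orange); the dotted line is the median of all genes tested in the 6 tumors, 0.13. The interval excludes 0 for Scd2 and Srebf1 in both fits, and also for Scd1 and Dhcr7 in the thymic tumors.

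The second comparison kept to one site, with 2 sufficient and 2 deficient thymic tumors. It shares the deficient tumors with the first and is not a separate test. No member passed the adjusted threshold, where 0.0244% of all genes did (3 of 12286). The unadjusted p was under 0.05 for 4 members, all higher in deficient tumors, beside 5.15% of all genes. Scd2 was 3.23-fold higher (log2 difference 1.67, SE 0.26, 95% interval 1.06 to 2.28, adjusted p 0.213 by limma). Scd1 had a log2 difference of 1.13 (95% interval 0.15 to 2.11), Srebf1 of 0.94 (0.25 to 1.63) and Dhcr7 of 0.78 (0.06 to 1.49), each with an adjusted p of 0.662 by limma. Deficient values lay above both sufficient ones in 12 members, beside 32.5% of all genes, among them 5 of the 6 fatty acid genes (all but Fasn). They lay below in 1 member, Mvk, beside 10.5% of all genes. The median over members was 0.31, beside 0.19 over all genes.

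The third comparison, of the 2 neck node with the 2 thymic sufficient tumors, gives the size of the differences within 1 genotype. Neck tumors came from mice of 16 to 18 weeks and thymic tumors from mice of 10 weeks, so site and age cannot be told apart. No member passed the adjusted threshold, where 0.155% of all genes did (19 of 12255), and 0 members had an unadjusted p under 0.05 in limma, where 5.21% of all genes did so with higher neck values. Scd1 came nearest, at 1.65-fold higher in neck nodes (log2 difference 0.67, 95% interval -0.07 to 1.40, adjusted p 0.636 by limma). Neck values lay above thymic ones in 9 members (Hmgcs1, Idi1, Sqle, Lbr, Ebp, Dhcr7, Srebf1, Acly and Scd1), beside 27.9% of all genes, and below in 2 (Mvk and Nsdhl), beside 12.6%. For Dhcr7 the site difference within sufficient tumors, 0.53 with neck higher, was as large as its genotype difference over the 6 tumors. Within the thymus, the site of both deficient tumors, the genotype differences of Dhcr7 and Srebf1 were 0.78 and 0.94. For Srebf1 the site difference was 0.50, again with neck higher. For Scd2 it was 0.37, and it came to -0.20 without sufficient tumor 1.

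The members also differed between single tumors. Deficient tumor 1 held the highest value of 11 members (36.7%), although it was the highest tumor for 9.34% of all genes tested, and it was the lowest in 0 members. Deficient tumor 2 was the highest in 8 members, a share of 26.7% beside 35.6% of all genes. Sufficient tumor 3 was the lowest in 15 of the 30 members, beside 39.7% of all genes. Sufficient tumor 4 was the highest in 6 members (20.0%), all of them genes of the sterol steps, beside 18.5% of all genes. Between the 2 deficient tumors, deficient tumor 1 was higher in 6 of 7 mevalonate genes and in 2 of 6 fatty acid genes, and in 40.6% of all genes.

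**Figure D5:**
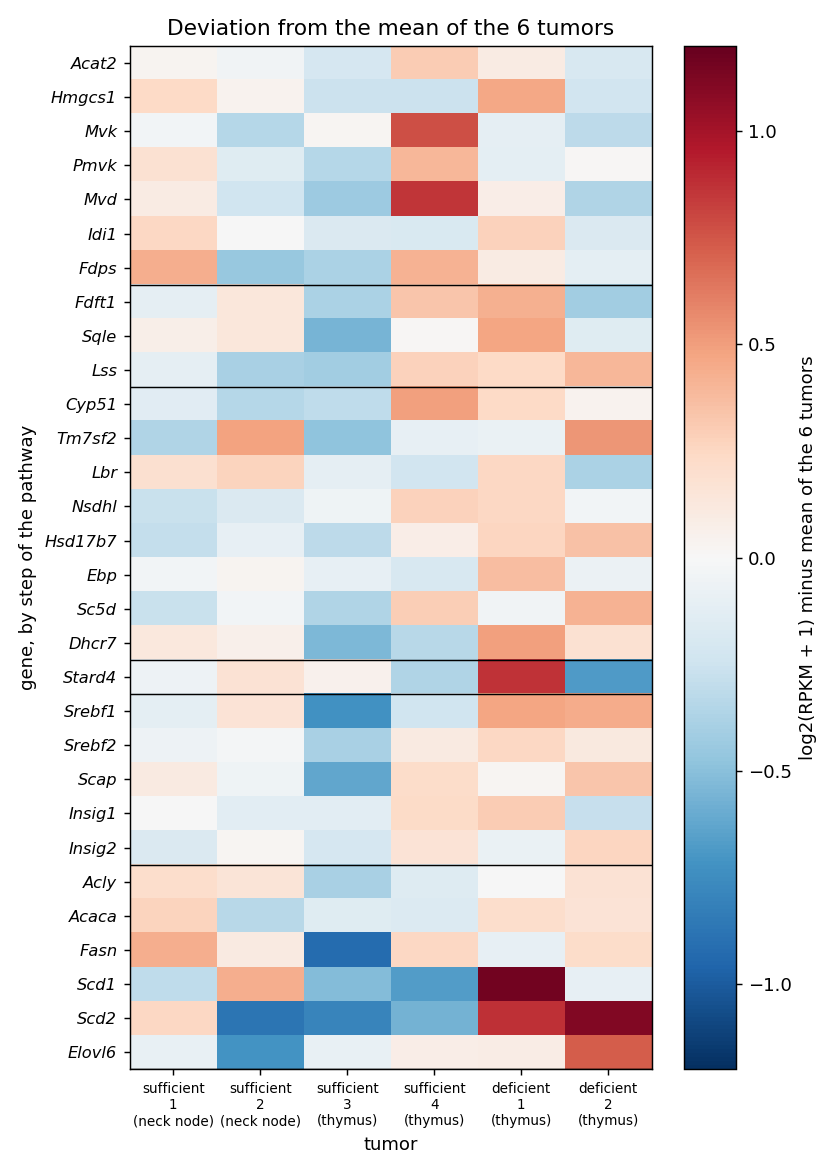
Deviation of each gene's log2(RPKM + 1) from its mean over the 6 tumors, one column per tumor and one row per gene, with lines between the steps of the pathway; red is above and blue below the mean. Sufficient tumor 3 is blue in most rows, sufficient tumor 4 is reddest at Mvk and Mvd, and Scd2 is red in both deficient tumors.

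A further 42 genes of the same pathways and their control, gave a wider view, and 34 of them passed the filter. In limma 0 of the 34 passed the adjusted threshold, and 5 had an unadjusted p under 0.05, of which 4 were higher in deficient tumors, beside 2.88% of all genes, and 1 was lower, beside 94 of the 12751 genes. Of these 5, Scd4 passed the filter through the deficient tumors alone, and Fads2 through the sufficient tumors alone. Each was thus kept only by the group where it was high, so its direction is not separate support. The median log2 difference of the 34 was 0.23, beside 0.13 over all genes. Abca1, which exports cholesterol to lipid-poor apolipoprotein, was at 1.05, 0.636, 0.855 and 1.03 RPKM in sufficient tumors and at 2.21 and 6.13 in deficient tumors. Abcg1, which exports cholesterol to lipoprotein particles, was at 6.55, 2.49, 3.30 and 6.51 RPKM in sufficient tumors and at 9.63 and 10.3 in deficient tumors. For both exporters the deficient tumors were above all sufficient ones, by log2 differences of 1.34 (95% interval 0.59 to 2.10) and 1.02 (0.20 to 1.84), with adjusted p = 0.893 by limma for each.

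Fads2, which desaturates polyunsaturated fatty acids, went the other way, at 0.843, 1.06, 0.804 and 2.57 RPKM in sufficient tumors and 0.315 and 0.193 in deficient tumors. Its log2 difference was -0.83 (95% interval -1.55 to -0.11, adjusted p 0.893 by limma). Both deficient values of Fads2 were under the filter level of 0.5 RPKM, so this gene lies near the floor. The other 2 genes were Scd4, a low-level paralog of Scd2 with 0.109 to 0.291 RPKM in sufficient tumors and 0.529 and 0.781 in deficient tumors, and Hsd17b12, a reductase of fatty acid elongation with 24.0 to 28.5 RPKM in sufficient tumors and 33.0 and 39.6 in deficient tumors.

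Some macrophage markers were also higher in the deficient tumors. Of the 7 listed (Adgre1, Csf1r, C1qa, C1qb, Cd68, Lyz2 and Apoe), 6 had positive log2 differences with a median of 1.16, and 4 (C1qa, C1qb, Cd68 and Apoe) had an unadjusted limma p under 0.05, beside 2.88% of all genes, with 0 past the adjusted threshold (lowest adjusted p 0.212). Within the thymus the median was 0.80. C1qa was at 4.92, 4.71, 9.25 and 15.1 RPKM in sufficient tumors and at 22.9 and 27.7 in deficient tumors, and Apoe, which carries lipid in particles, was at 15.3 to 24.8 RPKM and at 54.6 and 107. The summed level of the list was 145 to 314 RPKM in sufficient tumors and 264 and 353 in deficient tumors, with Lyz2 as its largest member in every tumor. C1qa and C1qb also differed with site, being lower in neck tumors by log2 differences of -1.14 and -1.23 (adjusted p 0.557 by limma for each). The part of macrophage RNA in the values of Scd2, Srebf1, Abca1 and Abcg1 was not tested, and in bulk RNA fewer cells of a type and less RNA per cell cannot be told apart. The list of 9 adipocyte markers summed to 1.32 to 5.34 RPKM in sufficient tumors and 3.81 and 7.26 in deficient tumors, most of it Fabp4, while Plin1 and Lep were at 0.0214 RPKM or less and Adipoq at 0.948 or less in every tumor. Fibroblast markers summed to 3.17 to 12.8 RPKM in sufficient tumors and 8.69 and 20.6 in deficient tumors, and the T-cell list to 19.3 to 62.6 and to 14.3 and 18.7.

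Neutrophil and salivary gland markers followed site. The neutrophil list summed to 1580 and 1610 RPKM in the neck tumors and to 106 to 268 in the thymic tumors of both genotypes, and the salivary list to 68.6 and 72.1 against 0.215 to 1.13. The erythroid list summed to 35.9 to 302 RPKM in sufficient tumors and to 20.5 and 68.0 in deficient tumors. The cell division list summed to 931 and 852 RPKM in the neck tumors, to 694 and 521 in thymic sufficient tumors and to 818 and 762 in thymic deficient tumors. Its 8 genes were all higher in neck than in thymic sufficient tumors by their log2 differences, beside 61.0% of all genes. Of them 4 had an unadjusted limma p under 0.05, beside 5.21% of all genes in that direction. Between thymic tumors 7 of the 8 were higher in deficient than in sufficient ones, beside 68.9% of all genes. There 2 had an unadjusted limma p under 0.05, Mki67 and Plk1, beside 5.15% of all genes in that direction. Myc was at 237 to 516 RPKM in sufficient tumors and at 451 and 909 in deficient tumors. The part of these values in the members' differences was not tested.

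The libraries did not mark strand, so reads from overlapping genes on opposite strands cannot be told apart. Fdft1 shares 774 exon bases with Ctsb, a cathepsin gene on the opposite strand, and Lbr shares 440 with Dnah14. Scap shares 985 with 5830462I19Rik and Hmgcs1 shares 557 with Gm48342, also on the opposite strand. Lss, Idi1, Cyp51, Srebf1 and Elovl6 share fewer bases in the same way. On the same strand, Fdps shares 1124 exon bases (26.7% of its own) with the gene model Gm43738. Tm7sf2 shares 532 (12.1%) with Vps51, also on its own strand. Idi1 has a copy, Gm13502, that is identical over 684 bases, and Acat2 is 97.7% identical to Acat3 over 1477 bases. Elovl6 is 97.4% identical to Gm11295 over 805 bases, and Fdft1 is 97.4% identical to Gm6781 over 1249 bases.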

How the data were processed

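RNA was measured in 6 tumors. The authors deposited RPKM values for 38293 Ensembl genes. Per the labels and the study's methods, they made them from single-end reads (2 technical runs a tumor) aligned to GRCm38 with STAR 2.3.0 and counted with HTSeq 0.5.4p3, and the submitters' processing notes also name DESeq 1.12.1. The study's methods describe scaling of the counts by a geometric mean across samples, but whether the RPKM values carry it, their gene lengths and the read totals are not given in the sources used here, and the low values did not allow whole reads to be recovered, so no count model could be used.

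Values of at least 0.5 RPKM in at least 2 tumors of a comparison were kept, and log2(RPKM + 1) was fitted with limma 3.58.1 (trend, no covariates) in R 4.3.3. Log2 differences are on that scale, which understates the change of low genes, while folds given as such are ratios of mean RPKM. Adjusted p-values are Benjamini-Hochberg over all genes tested, and the fit was checked on simulated data with known changes. Its recovery of changes as small as those of the members is not given here. Ratios were tested by exact permutation of tumors (smallest p 0.133). Groups came from the labels, and 0 columns were left unmapped. The members and gene lists were chosen with earlier results of these data known. Values in every tumor are given for members with an unadjusted p under 0.05 in any comparison, for non-overlapping ones with a log2 difference of at least 0.5, for the 5 most abundant, for the regulators and for the ratio pairs (Hmgcs1, Srebf2 and Hsd17b7 were added for their place in the pathway). Coordinates come from the GENCODE M21 annotation of GRCm38, motifs were searched in Python 3.11.15, and transcript copies were found with BLAST 2.17.0. Alternatives were other pseudocounts, filters, scalings, no trend, site as a covariate, a replicate block and leaving out each tumor.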

Additional observations from a re-analysis of the deposited data

How the results depend on the processing

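No member passed the adjusted threshold in limma under any alternative run for the 3 comparisons. Scd2 kept an unadjusted p under 0.05 in 16 of 16 alternatives of the comparison of all 6 tumors, with log2 differences of 1.30 to 1.74 and adjusted p-values from 0.0970, without sufficient tumor 1, to 1.00. Srebf1 did so in 12 of 16, with 0.44 to 0.94 and adjusted p-values of 0.545 to 1.00. Over all genes, 8 passed, and 1 to 9 under the alternatives. Of the members, 6 had deficient values above all sufficient ones, but 3 after median-ratio scaling, 11 without deficient tumor 1 (beside 37.7% of all genes, with 4 members below, beside 13.9%) and 14 without deficient tumor 2 (beside 16.5%).

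The median over members was 0.12 to 0.31 when 1 tumor was left out. Within the thymus it was 0.069 after median-ratio scaling, where 18 members were positive and 12 negative instead of 23 and 7, and 0.11 to 0.42 with 1 tumor left out. For site it was -0.17 without sufficient replicate 3 and 0.34 without sufficient replicate 4, and the difference of Scd2 between sites was -0.20 without sufficient replicate 1 and 0.93 without sufficient replicate 2. With 1 tumor left out, the difference in log2 ratio was -1.44 to 0.049 for Scd1 to Scd2, -0.57 to 0.35 for Insig1 to Insig2, -0.18 to 1.06 for Tm7sf2 to Lbr and 0.34 to 0.52 for Srebf1 to Srebf2. The first 3 changed sign without deficient replicate 2. The causes were not tested.

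Replicate numbers 1 and 2 occur in both genotypes, but the labels give them no shared origin. The correlation of deviations was 0.0192 and 0.213 in the 2 pairs, which share only a number. With 2 deficient tumors the deviations mirror each other, so the mismatched pairs were fixed at -0.213 and -0.0192. These correlations therefore cannot decide whether the numbers mark a shared origin. With the replicate block the median over members was 0.15, 0 members passed, and Scd2 (1.30, with an unadjusted limma p of 0.0165) was the member with an unadjusted p under 0.05, while Srebf1 stood at 0.44, with an unadjusted p of 0.0971. Within the thymus the groups share no number. A count-based test with DESeq2 was not run because no counts were used.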

Other observations

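Within the deficient tumors, the members that differed most between the animals were Stard4 (3.31-fold higher in deficient tumor 1) and Scd1 (2.40-fold higher in deficient tumor 1), while Tm7sf2 was 0.497 times and Elovl6 0.626 times as high in deficient tumor 1 as in deficient tumor 2. Srebf1 was nearly level between them, at a ratio of 1.02. Among the sufficient tumors, Ebp, the sterol isomerase, varied least, with an SD of 7.08% of its mean, and Tm7sf2 varied most, with an SD of 60.8%.

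Of the wider list of lipid genes, Nr1h2, which encodes the widely expressed liver X receptor, was at 11.6 to 21.5 RPKM in sufficient tumors and at 23.1 and 18.9 in deficient tumors, and Nr1h3, the receptor of macrophages and liver, was at 0.618 to 1.27 and at 0.873 and 1.17. Mylip, a ubiquitin ligase that liver X receptors also control, was at 9.07 to 13.2 RPKM in sufficient tumors and at 14.2 and 12.9 in deficient tumors, with overlapping groups. These genes were chosen after their values were seen.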
